A study of Mus musculus with 3 samples.

Results

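The genes described here are the nuclear genes of oxidative phosphorylation, taken as every gene of the matrix whose symbol begins with Nduf, with Cox followed by 4 to 8, with Uqcr or with Atp5. This rule gave 89 of 31053 genes, which carry 88 symbols because Atp5o is listed under 2 identifiers. The data are a droplet-based 3′ single-cell RNA-sequencing matrix of brain tissue from C56BL6 mice (strain as labelled) aged 10 weeks, in 3 libraries: control, ischemic stroke by middle cerebral artery occlusion with reperfusion, and hemorrhagic stroke by collagenase injected into the striatum. Animals of a condition were pooled into 1 library, so a library is 1 sample with no biological replicate, and the mice carried no transgene that the labels name. The barcodes carry the suffixes 1, 2 and 3, and the labels do not say which suffix is which condition. Condition was not inferred from cell numbers or from the values. The libraries are therefore called library 1, 2 and 3 after the suffix, no condition is compared with another, and no test was made.

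Oxidative phosphorylation moves electrons from NADH and succinate along complexes I to IV of the inner mitochondrial membrane to oxygen, and ATP synthase uses the proton gradient this builds to make ATP. Most subunits are encoded in the nucleus, while the catalytic core is in part encoded by mitochondrial DNA (the mt- genes), so the complexes need transcripts from both genomes. Several small subunits of complex IV exist as isoforms that are known from heart and skeletal muscle, testis or oxygen-poor tissue, and subunit c of ATP synthase is encoded by a family of genes that give the same mature peptide.

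The members fall into 36 subunits of complex I (NADH dehydrogenase), 8 complex I assembly factors (Ndufaf), 8 subunits of complex III (cytochrome bc1), 20 genes of complex IV (cytochrome c oxidase), among them Ndufa4 and its paralog Ndufa4l2, 16 ATP synthase entries and Atp5s. Atp5s was kept as a role of its own, which the figure of single members labels as ATP synthase assembly. Of the 89, 87 had a unique molecular identifier (UMI, 1 per captured transcript) in the cells kept. Cox8c and the second Atp5o entry had none, and 86 members had a mean over cell classes of at least 10 CPM (a gene's UMIs divided by all UMIs of the class and scaled to 1000000). Complex I subunits held 33.0% of the 4781524 member UMIs, complex IV 29.4%, ATP synthase 26.2%, complex III 10.2% and the complex I assembly factors 1.11%. The most abundant member of each group over all cells kept was Ndufa13 for complex I, Uqcrh for complex III, Cox4i1 for complex IV, Atp5h for ATP synthase and Ndufaf8 for the assembly factors, at 402, 569, 1069, 564 and 54.3 CPM. A UMI in a 3′ library stands for 1 transcript end and was not divided by gene length.

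All 89 members were found in the GRCm38 annotation, and 71 of the 88 symbols have a promoter in RefSeq (GRCm38.p6). The stretches below are the 150 bases before the RefSeq start, 5′ to 3′ on the gene's strand, with matches to GCGCA and GCGC parted by any base (the core of the site of nuclear respiratory factor 1, NRF1) or to CCGGAAG (an ETS family site) in capitals. They are shown because the genes carry large differences between cell classes given further on: the complex IV isoforms Cox8b and Cox6b2, each followed by the common form of its subunit, Cox8a and Cox6b1, the common form Cox6a1 of the Cox6a pair, the subunit c genes Atp5g1 and Atp5g2, and the complex I subunit Ndufa11.
Cox8b, chr7:140900447-140900596, minus strand: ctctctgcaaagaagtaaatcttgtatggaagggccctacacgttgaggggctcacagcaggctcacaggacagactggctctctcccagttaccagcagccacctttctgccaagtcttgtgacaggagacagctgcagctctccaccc
Cox8a, chr19:7217617-7217766, minus strand: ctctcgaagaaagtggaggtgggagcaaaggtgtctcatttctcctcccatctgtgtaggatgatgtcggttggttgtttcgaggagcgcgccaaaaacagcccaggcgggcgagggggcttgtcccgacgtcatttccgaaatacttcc
Cox6b2, chr7:4753095-4753244, minus strand: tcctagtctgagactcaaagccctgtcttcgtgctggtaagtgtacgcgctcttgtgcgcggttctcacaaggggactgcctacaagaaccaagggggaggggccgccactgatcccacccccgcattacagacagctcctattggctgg
Cox6b1, chr7:30626115-30626264, minus strand: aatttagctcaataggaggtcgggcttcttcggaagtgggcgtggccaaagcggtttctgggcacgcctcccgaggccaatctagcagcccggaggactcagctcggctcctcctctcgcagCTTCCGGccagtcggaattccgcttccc
Cox6a1, chr5:115348959-115349108, minus strand: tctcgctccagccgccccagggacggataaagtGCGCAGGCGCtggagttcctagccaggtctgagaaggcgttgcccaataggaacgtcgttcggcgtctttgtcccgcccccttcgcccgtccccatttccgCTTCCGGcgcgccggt
Atp5g1, chr11:96075632-96075781, minus strand: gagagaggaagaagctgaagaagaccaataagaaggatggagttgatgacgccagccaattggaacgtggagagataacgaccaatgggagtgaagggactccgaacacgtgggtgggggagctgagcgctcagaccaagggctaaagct
Atp5g2, chr15:102671048-102671197, minus strand: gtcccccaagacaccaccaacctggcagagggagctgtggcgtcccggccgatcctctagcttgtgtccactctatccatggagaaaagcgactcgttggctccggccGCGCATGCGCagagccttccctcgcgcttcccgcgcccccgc
Ndufa11, chr17:56717612-56717761, plus strand: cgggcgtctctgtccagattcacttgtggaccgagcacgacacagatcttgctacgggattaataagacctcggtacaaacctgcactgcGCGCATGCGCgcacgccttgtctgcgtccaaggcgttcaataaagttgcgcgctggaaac
In these 150 bases Cox8b, Cox8a, Cox6b2 and Atp5g1 had neither motif, Atp5g2 and Ndufa11 had an NRF1 match, Cox6b1 had an ETS match, and Cox6a1 had a match to each. For Cox6b1, Cox6a1, Atp5g1 and Atp5g2 the RefSeq start lies inside the span that the gene has in the annotation. The stretch is then partly inside that span, and for Atp5g2 wholly.

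Over windows of 250 bases before to 50 after the start, searched on both strands, the NRF1 letters were in 18 of 76 member promoters (23.7%), in 10.0% of 9352 promoters of the other genes tested below and in 4.6% of all 32851 promoters. The ETS letters were in 16 (21.1%), 17.5% and 8.86%. TATAAA was in 8 (10.5%), 7.41% and 13.6%. The median GC content of the 150-base stretches was 59.7% for members, 63% for the other tested genes and 54% for all promoters. A match is a run of letters and not a measured binding site.

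Of 35968 barcodes, 31982 had at least 1000 UMIs and at most 30% mt- counts. Cell classes were gated on raw UMIs: a cell belonged to a class when at least 3 of the 6 marker genes of that class had a UMI and no other class reached 3. This put 24998 cells in exactly 1 class, left 2999 in none and left out 3985 that passed 2 or more gates. The libraries held 69270514 to 105957232 UMIs, and 110 barcode sequences occurred in more than 1 library (142 cells of the classes). Library 3 stood apart in its makeup: it held 749 of 766 endothelial cells and 85 of 87 pericytes, but 21 of 2268 T cells. Its mt- share over all cells kept was 5.75%, against 3.81% and 3.59% in libraries 1 and 2. At least 3 of 4 further markers, not used in the gates, were 5-fold or more above the other cells in all ranked classes except neurons, where Nrgn and Slc17a7 were not and Avp and Scg2 were among the leading genes. These cells are called neurons by their gate alone. Values per library are given where it held at least 20 cells of a class, and 14 classes with at least 50 cells were ranked. Brackets hold exact 95% intervals (Clopper-Pearson for shares, Poisson for CPM), which cover counting error only.

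Nuclear OXPHOS genes together took 1.96% of the UMIs of all cells kept, and the share differed 7.29-fold between the classes. It was highest in choroid plexus epithelium, the secretory epithelium that makes cerebrospinal fluid, at 5.89% [5.84, 5.94] of UMIs in 107 cells (6.48% in library 1 and 5.42% in library 2). Neurons followed with 3.52% (3.51% and 2.97%, 106 cells). Their sum lies above both library values because of 1 deep cell of library 3, and it was 3.34% without that library. The lowest share was in neutrophils, at 0.807% [0.791, 0.823] in 323 cells (0.733% and 1.02%). In libraries 1 and 2 alike the choroid plexus value exceeded that of every other class, and the neutrophil values lay below those of all other ranked classes. The median share per cell was 5.82% in choroid plexus epithelium and 0.717% in neutrophils.

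**Figure D1:**
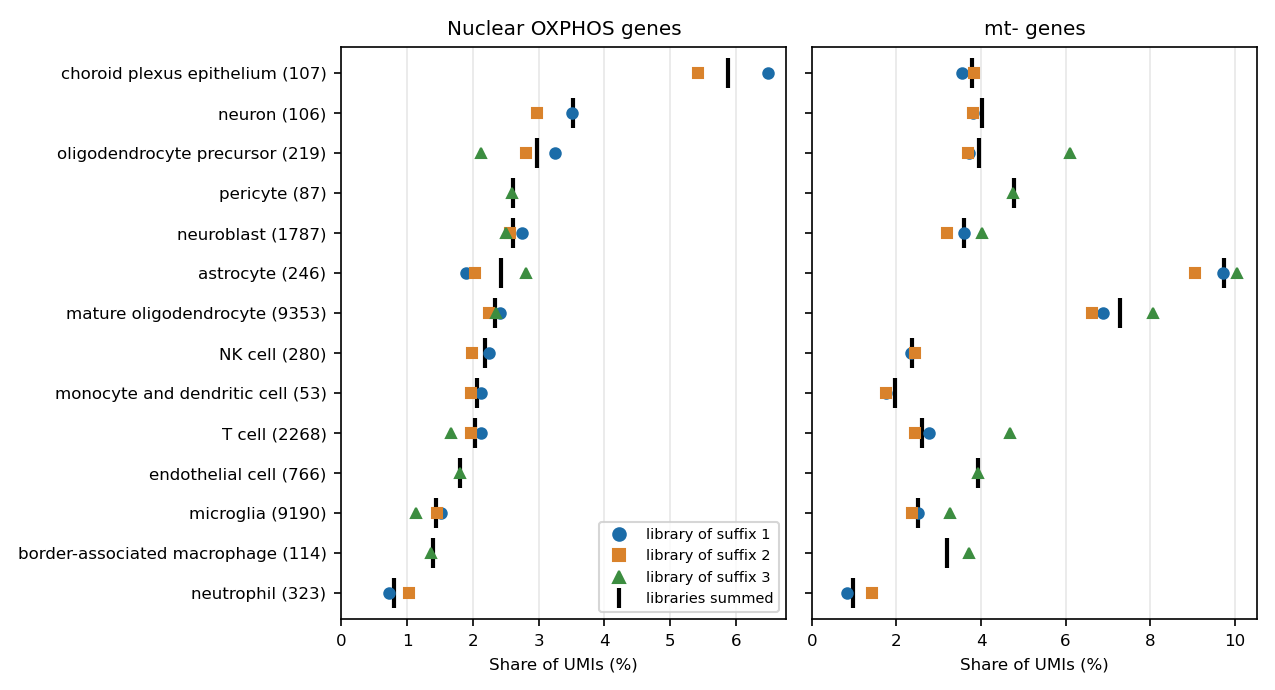
Share of UMIs (%) from nuclear OXPHOS genes (left) and mt- genes (right) in the 14 ranked cell classes, with the number of cells in brackets; points are libraries and bars the libraries summed. Choroid plexus epithelium stood highest on the left at 5.89% and astrocytes highest on the right at 9.74%.

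Oligodendrocyte precursors came next after neurons in the summed order, while neuroblasts and mature oligodendrocytes lay in the middle. Oligodendrocyte precursors had 3.25%, 2.82% and 2.12% in libraries 1, 2 and 3 (2.98% summed, 219 cells). Neuroblasts, the migrating young neurons of the adult brain, had 2.75%, 2.56% and 2.51% (2.61%, 1787 cells), and mature oligodendrocytes 2.41%, 2.25% and 2.36% (2.33%, 9353 cells). Library 3 was the low value of the precursors, and its 31 precursors were also shallow, with a median of 2848 UMIs against 5759 and 5012, and had 6.11% mt- counts against 3.72% and 3.69%. The part of depth and of mt- counts in that low value was not tested.

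Astrocytes differed most between libraries among the classes with 3 library values of over 50 cells, at 1.89%, 2.03% and 2.81% (2.43% summed, 246 cells). Their median share per cell was 0.988%, 1.30% and 2.66%. Depth moved with it: the median astrocyte held 2240, 2286.5 and 4058 UMIs, and its part in the difference was not tested. Pericytes, the mural cells of capillaries, had 2.61% (87 cells, 2.59% in library 3), and endothelial cells 1.81% (766 cells, 1.81% in library 3). Smooth muscle cells, too few to rank, had 2.79% in 38 cells.

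As a share of all UMIs, immune cells lay at the lower end together with endothelial cells, which at 1.81% stood between T cells and microglia. NK cells had 2.18% (2.24% and 1.99% in libraries 1 and 2), monocytes and dendritic cells 2.07% (2.13% and 1.97%) and T cells 2.04% (2.12%, 1.98% and, in 21 cells of library 3, 1.67%). Microglia, the resident macrophages of the brain, had 1.44% [1.44, 1.44] in 9190 cells, with 1.52%, 1.46% and 1.14% in libraries 1, 2 and 3. Border-associated macrophages had 1.40% (114 cells). Every microglial library value lay below every value of mature oligodendrocytes, neuroblasts, precursors, neurons and choroid plexus epithelium. The place of NK and T cells depended on the total. Ribosomal protein genes took 35.9% and 33.7% of their UMIs, against 6.18% in mature oligodendrocytes. With mt- and ribosomal protein UMIs left out of the total, NK cells had 3.54%, T cells 3.20% and monocytes and dendritic cells 2.85%. Mature oligodendrocytes then had 2.70%, precursors 3.43%, microglia 1.79% and neutrophils 0.857%.

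Along the order of the 14 classes, neighbours were apart in their library ranges at 4 steps: choroid plexus epithelium over neurons, mature oligodendrocytes over NK cells, endothelial cells over microglia, and border-associated macrophages over neutrophils. In each of these steps at least 1 neighbour had values in 1 or 2 libraries only, and border-associated macrophages and neutrophils had no library in common. At the other steps the ranges overlapped. The gap between mature oligodendrocytes and NK cells was narrow, at 2.25% in the lowest oligodendrocyte library and 2.24% in the highest NK library. With mt- and ribosomal protein UMIs left out of the total, their order was reversed (2.70% against 3.54%). Astrocytes exceeded mature oligodendrocytes in 1 of 3 libraries and pericytes fell below precursors in the summed order but not in library 3, so these neighbours did not differ beyond the spread of libraries.

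The mt- genes ranked the classes otherwise. Their share ran 9.90-fold, from 9.74% in astrocytes (9.72%, 9.06% and 10.1%) and 7.27% in mature oligodendrocytes (6.87%, 6.63% and 8.07%) to 0.984% in neutrophils (0.844% and 1.42%). The astrocyte libraries all lay above those of mature oligodendrocytes. Choroid plexus epithelium, highest for nuclear members, had 3.79% mt- counts (3.55% and 3.84%), close to precursors (3.96%) and neurons (4.04%). The transcript Ttr alone had 375510 CPM in this class, which lowers its mt- and nuclear shares and every other CPM there. Shares with Ttr left out of the total were not computed, so this closeness holds for the full total only. Cytochrome oxidase subunits of the mitochondrial genome had 41746 CPM in astrocytes, 32300 CPM in mature oligodendrocytes, 15507 CPM in choroid plexus epithelium and 10944 CPM in microglia.

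The ratio of nuclear OXPHOS to mt- UMIs was 1.55 in choroid plexus epithelium (1.83 and 1.41), 1.05 in monocytes and dendritic cells and 0.919 in NK cells. It was 0.321 in mature oligodendrocytes (0.351, 0.339 and 0.292) and 0.249 in astrocytes (0.194, 0.224 and 0.279). The choroid plexus values, from libraries 1 and 2 only, exceeded the astrocyte values of every library, and the summed ratio differed 6.23-fold. Neutrophils, lowest in both shares, had 0.820. Without library 2, where 60 of the 107 choroid plexus cells lay, too few of these cells remained to rank: the ratio then spanned 3.70-fold, from NK cells to astrocytes, and the nuclear share 4.95-fold, from neurons to neutrophils. Across the 14 classes the 2 shares had a Pearson r of 0.23 and a Spearman rho of 0.61 (0.42 and 0.66 without choroid plexus epithelium). This is a description, and the classes share libraries and a total to which both shares belong.

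**Figure D2:**
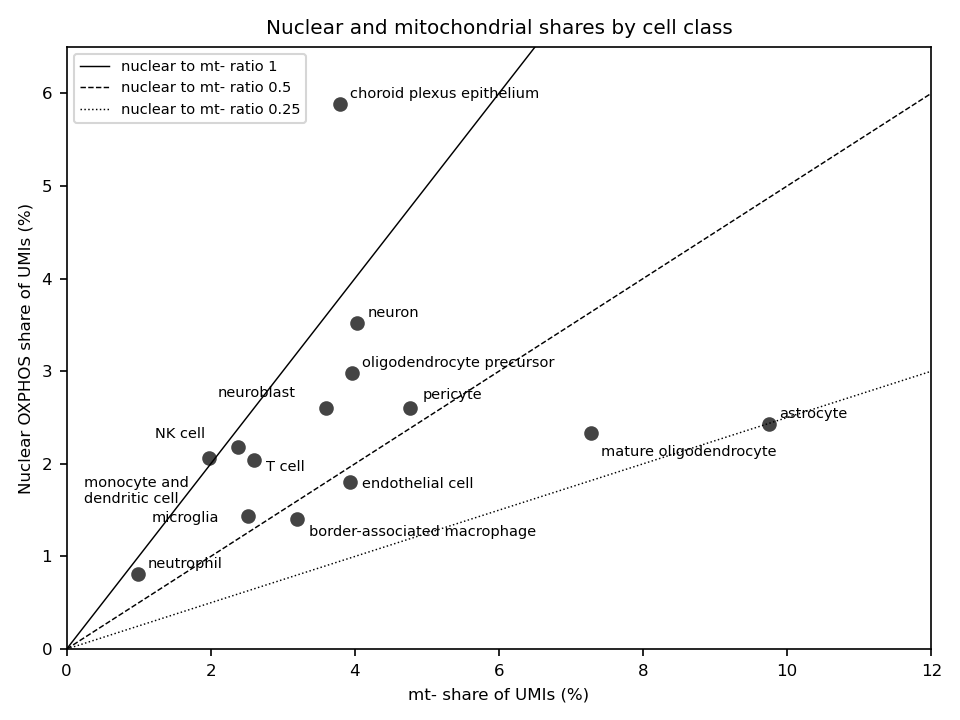
Nuclear OXPHOS share (vertical, % of UMIs) against mt- share (horizontal, % of UMIs) for the 14 ranked classes with libraries summed; lines mark nuclear to mt- ratios of 1, 0.5 and 0.25. Choroid plexus epithelium lay above the ratio of 1 and astrocytes at 0.249.

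The complexes mostly kept step with each other. The class order ran from choroid plexus epithelium to neutrophils for complex I (1.76% against 0.227% of UMIs, 7.75-fold), complex III (0.664% against 0.0763%, 8.71-fold), complex IV (1.90% against 0.281%, 6.76-fold) and ATP synthase (1.53% against 0.216%, 7.08-fold). Across the 14 classes Pearson r between complexes lay between 0.92 and 0.98, over classes that share libraries and depth. Spearman rho was lower, from 0.78 (complex I with ATP synthase) to 0.93 (complex I with complex III). The mix also differed: complex I subunits made up 27.2% of member UMIs in NK cells and 37.5% in neurons. The complex I assembly factors had another highest class, being highest in neurons at 0.0514% of UMIs.

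Single members mostly followed this sum. Over the 14 classes the Spearman rho of a member with the summed other members had a median of 0.84 over the 86 members tested, and 78 had at least 0.5. Most alike were the complex IV subunit Cox6c and the ATP synthase gamma subunit Atp5c1 (0.96 each), then the complex I subunit Ndufb10 (0.96). The lowest values belonged to Cox6a2 (-0.24), Cox7a2l (-0.06), Ndufa4l2 (-0.03) and Cox8b (0.19), each a variant subunit of complex IV.

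To ask which members differ by class, the CPM of a class (plus 10) was divided by the median of the other classes in the same library, and a gene counted when it passed 1.5-fold in 1 direction in every library with enough cells. Of 9142 genes tested this was met in choroid plexus epithelium by 11.7% in the higher and 30.2% in the lower direction. Of the 86 members tested, 69 were higher and 0 lower, and the median log2 difference was 1.19 against -0.38 over all genes tested. By role these were 32 of 36 complex I subunits, 7 of 8 of complex III, 13 of 18 of complex IV, 14 of 15 of ATP synthase and 2 of 8 complex I assembly factors. The member share lay well above the background in the higher direction. One transcript, Ttr, had 375510 CPM in this class, which lowers the CPM of every other gene there. Its part in the background of 30.2% in the lower direction was not tested. Without this class 4 members (Cox8b, Cox7a1, Ndufaf5 and Atp5s) would have missed the filter on mean CPM. Their counts as higher here therefore depend in part on the filter. Ndufaf5 and Atp5s would also have missed it without neurons. Among the 82 other members 65 were higher, beside 10.8% of the 9045 other genes that did not depend on this class.

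The members furthest above the other classes in choroid plexus epithelium were isoforms known from other tissues: Cox8b (33.8-fold), Cox6b2 (20.4-fold) and Cox7a1 (9.26-fold), each on the scale of CPM plus 10. Cox8b and Cox7a1 were in the tested set only because of their level in this class. Among common subunits, Ndufa11 of the complex I membrane arm had 1138 and 882 CPM in libraries 1 and 2, against 527 and 400 CPM in neurons and 89.6 and 95.0 CPM in microglia. Its values did not overlap between these classes. Uqcr11, a small complex III subunit, had 1676 and 1077 CPM, 5.11-fold above the other classes. Cox8a, the common form of subunit 8, had 3660 and 3159 CPM and was the most abundant member in this epithelium at 3397 CPM. The lowest members there were Cox7a2l (0.635-fold), Cox6a2 and Atp5g2 (0.871-fold), none of which passed the threshold in either direction.

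Neurons were the other class with many members higher, at 36 of 86 with 0 lower, beside a background of 31.3% and 8.21%. The member share in the higher direction was 41.9%. With at least 2 gate markers in place of 3 it was 28.0% beside 29.8% of all genes, and at 2-fold it was 18.6% beside 18.1%, so the excess over the background rested on the gate and the threshold. The median log2 difference was 0.61 against 0.35 over all genes. The count was concentrated by role: 22 of 36 complex I subunits and 6 of 8 complex I assembly factors, against 2 of 15 of ATP synthase, 4 of 18 of complex IV and 1 of 8 of complex III. Ndufaf5, Ndufaf6 and Atp5s would have missed the filter on mean CPM without neurons, so their counts as higher here depend in part on the filter. Ndufaf5 and Ndufaf6 are among the 6 assembly factors. Among the 83 other members 33 were higher, beside 29.5% of the 8854 other genes that did not depend on this class. Highest were the assembly factor Ndufaf3 (2.83-fold), Ndufa11 (2.78-fold) and the accessory subunit Ndufs5 (2.75-fold). Atp5e, the epsilon subunit of ATP synthase, stood at 0.986-fold and did not pass.

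Neutrophils were the mirror image: 63 of 86 members were lower and 1 higher, with 29.5% and 13.9% of all genes doing so, and the median log2 difference was -1.49 against -0.37. Lower were 32 of 36 complex I subunits, 13 of 15 of ATP synthase, 7 of 8 of complex III and 10 of 18 of complex IV. Ndufa11 had 14.1 and 38.4 CPM (0.164-fold), and Ndufb10 had 47.1 and 52.9 CPM (0.181-fold). Atp5g2 had 81.3 and 159 CPM (0.186-fold). Cox8a had 727 and 923 CPM, within the range of the microglial and T cell libraries (538 to 958 CPM). A neutrophil of this set had a median of 2936 UMIs, fewer than any class but astrocytes.

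Microglia had 40 of 86 members lower and 1 higher, where 10.6% and 11.7% of all genes were; the median log2 difference was -0.73 against -0.20. The member share lay above the background in the lower direction. Lower were 23 of 36 complex I subunits, 6 of 15 of ATP synthase, 3 of 8 of complex III and 7 of 18 of complex IV. Ndufa5, an accessory subunit of the matrix arm of complex I, had 82.2, 68.9 and 70.5 CPM in libraries 1, 2 and 3 (0.380-fold), against 227, 187 and 257 CPM in mature oligodendrocytes. These libraries did not overlap. Atp5g3 followed at 0.431-fold and Ndufa11 at 0.444-fold. The only member higher was Cox6a2, which is described with the isoforms.

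In T cells, NK cells and monocytes with dendritic cells the member counts were close to the background in the lower direction and below it in the higher direction. T cells had 12 members lower and 0 higher (background 12.1% and 8.48%), of which 10 were complex I subunits. Among the lowest were Uqcr11 (0.409-fold) and the accessory complex I subunit Ndufc2 (0.452-fold). NK cells had 13 lower and 1 higher (16.3% and 10.2%), with Ndufc2 lowest at 0.349-fold. Monocytes and dendritic cells had 13 lower and 1 higher (18.8% and 11.8%). The lowest there was Ndufs1, the large iron-sulfur subunit of complex I, with 1 UMI in 461810 (2.17 CPM [0.0548, 12.1]) and none in libraries 1 and 2, against 93.5 CPM in astrocytes. The member that was higher in both NK cells and monocytes and dendritic cells was Cox7a2l.

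In mature oligodendrocytes and astrocytes few members passed. Mature oligodendrocytes had 3 higher and 0 lower (background 18.1% and 7.93%), fewer than the background: Ndufs7, a core iron-sulfur subunit of complex I, at 312, 354 and 334 CPM (2.43-fold), the assembly factor Ndufaf2 at 104, 94.6 and 94.3 CPM (2.45-fold), and Ndufs5 (1.74-fold). Astrocytes had 3 higher and 1 lower (17.5% and 4.65%). The assembly factor Ndufaf4 was highest there, at 105, 117 and 83.8 CPM (3.1-fold), and Ndufs1 (2.51-fold) and Ndufc2 (2.24-fold) were the others. Cox7a2l was the lower member in astrocytes, at 0.404-fold.

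Oligodendrocyte precursors had 11 members higher and 1 lower (29.9% and 2.55%), led by Ndufaf2 (2.97-fold), Ndufaf4 (2.6-fold) and Cox6b2 (2.57-fold); without library 3 the higher count was 28 of 84 (33.3%), beside 44.6% of all genes. The lower member was Cox7a2l (0.566-fold). Ndufaf1 and Atp5s would have missed the filter on mean CPM without precursors. Among the 84 other members 10 were higher, beside 28.2% of the 8805 other genes that did not depend on this class. Neuroblasts had 12 higher and 0 lower (28.7% and 6.4%). Their highest were the complex I subunit Ndufs4, at 273, 243 and 223 CPM (1.92-fold), the stalk subunit Atp5o (1.91-fold) and Atp5f1, subunit b of the peripheral stalk (1.80-fold). In these 4 glial and precursor classes the share of members that were higher was below the background with the gate as given. For oligodendrocyte precursors it was 39.0% beside 36.8% with at least 2 gate markers, and 36.1% beside 35.1% where no other class had 2 or more markers.

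**Figure D3:**
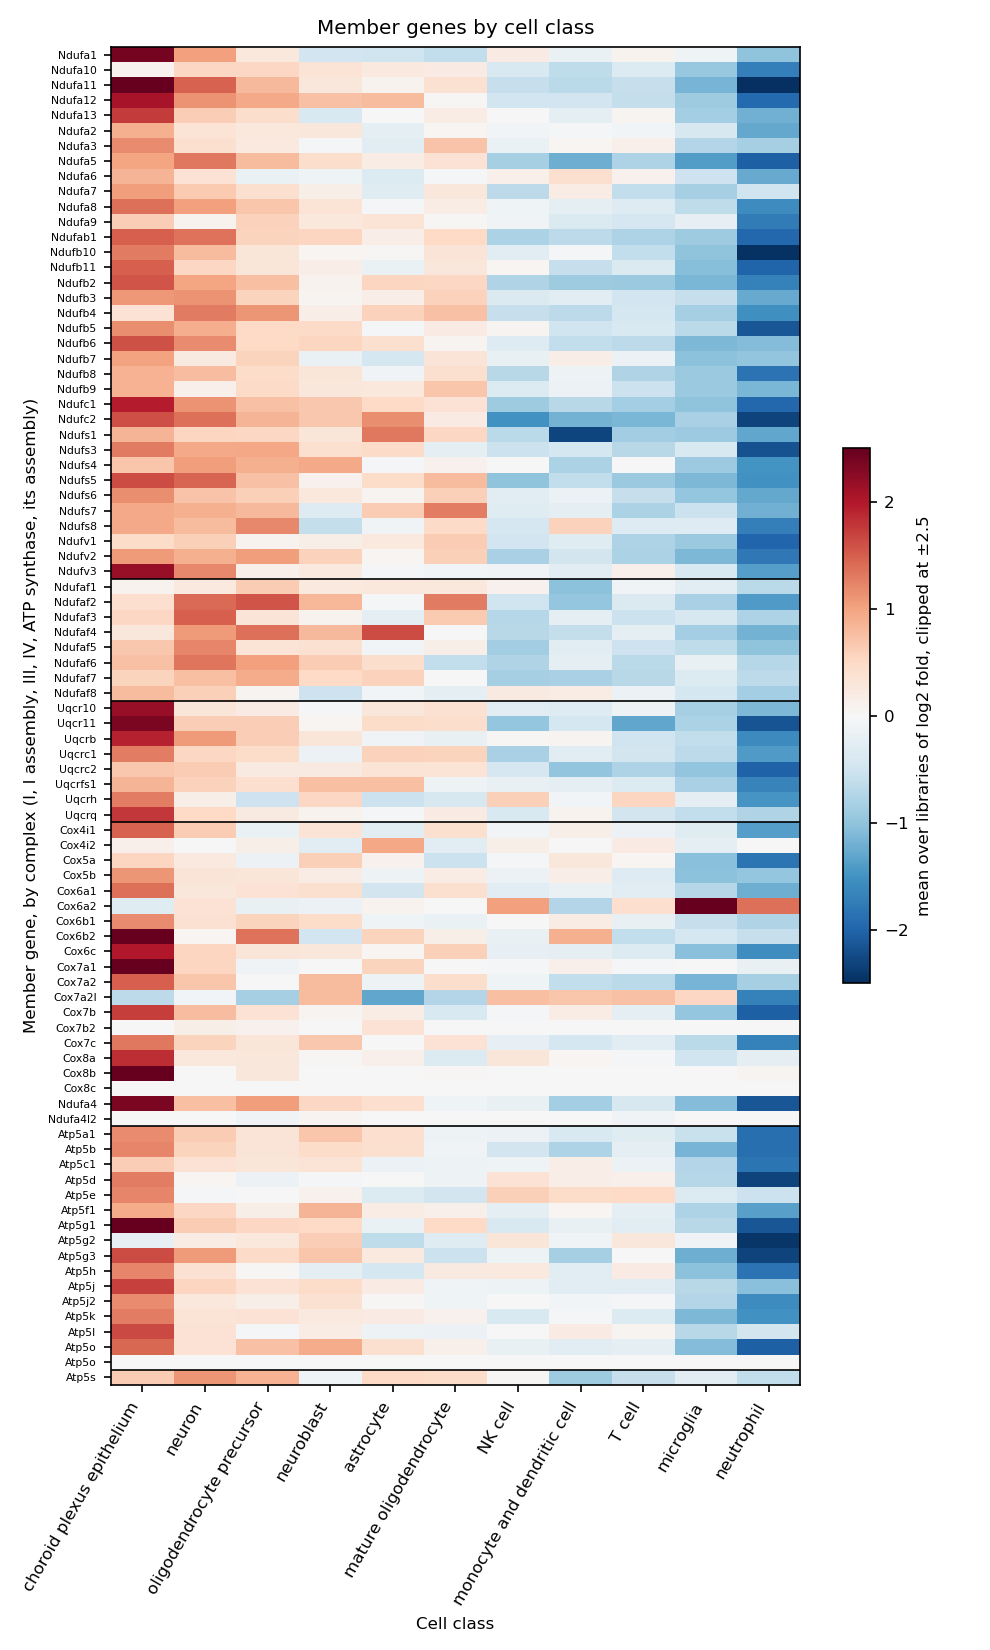
Mean over libraries of the log2 difference of 88 of the 89 members from the median of the other classes (CPM plus 10, clipped at ±2.5), for the 11 classes with at least 2 library values; black lines part the roles. Red filled the choroid plexus column (69 higher) and blue the neutrophil column (63 lower), and Cox6a2 was the deep red cell of the microglial column.

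The isoforms of complex IV parted the classes more sharply than the sum did. Pericytes were the extreme. Cox4i2, the isoform of subunit 4 known to respond to oxygen, made up 262 of 481 Cox4 UMIs in pericytes (54.5% [49.9, 59.0]) and had 973.5 CPM beside 814 CPM of Cox4i1. Elsewhere it was at most 1.96% among the other ranked classes (astrocytes). It had a UMI in 87.4% of pericytes, at a median of 3109 UMIs, and in 0.257% of mature oligodendrocytes, at a median of 6082.

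Ndufa4l2, a paralog of Ndufa4 known as a target of the hypoxia-inducible factors, had 549 of 566 UMIs of the pair in pericytes (97.0% [95.2, 98.2]), and 86 of 87 pericytes had a UMI. Its level was 2040 CPM [1873, 2218], and that of Ndufa4 was 63.2 CPM, the lowest of the ranked classes, next to 93.0 CPM in neutrophils. In library 3 Ndufa4l2 stood 170-fold above the other classes, Cox4i2 73.4-fold and Cox6b2 4.58-fold, while Ndufa4 was at 0.146-fold. The pair was nearly exchanged in these cells, whereas the median member was 0.22 above the other classes on the log2 scale, beside 0.08 over all genes. Nearly all pericytes came from library 3, and no replicate checks these values.

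Endothelial cells of library 3 had 7.68 CPM of Ndufa4l2 and 3.47 CPM of Cox4i2, which is 0.385% and 0.355% of the pericyte level. Of 4 pericyte markers not used in the gate, the endothelial level was 0% to 0.314% of that in pericytes, just under both. In smooth muscle cells the 2 isoforms were at 13.6% and 13.4% of the pericyte level, within the 0% to 73.5% of the markers, and Ndufa4l2 made up 21.4% of its pair. Smooth muscle cells and pericytes share several of these markers.

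**Figure D4:**
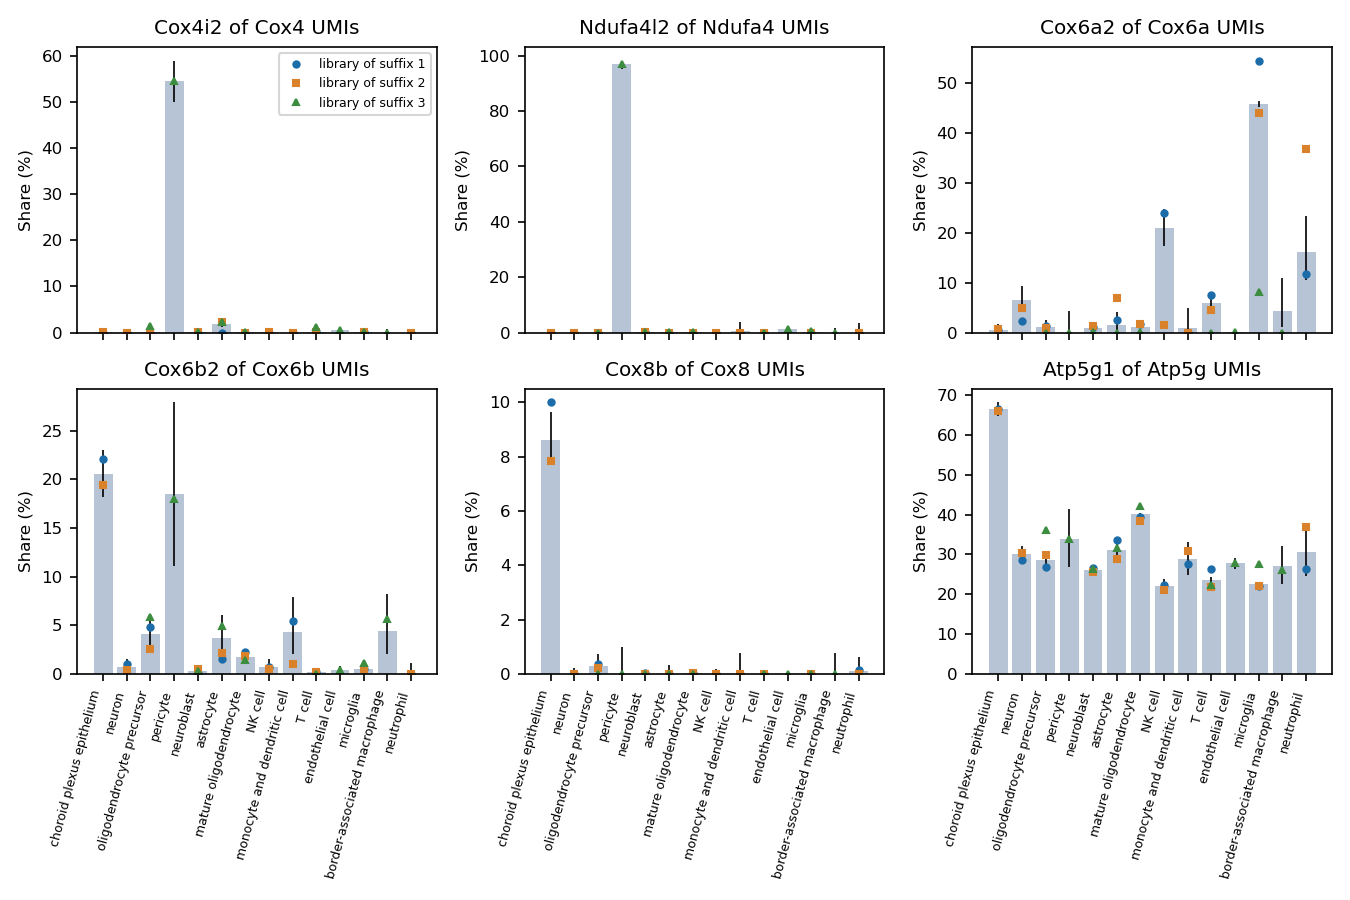
Share (%) of each named isoform in the UMIs of its gene family for the 14 ranked classes; bars are libraries summed with exact 95% intervals and points are libraries. Cox4i2 (54.5%) and Ndufa4l2 (97.0%) peaked in pericytes, Cox6a2 in microglia (45.8%), and Cox6b2, Cox8b and Atp5g1 in choroid plexus epithelium (20.5%, 8.63% and 66.5%).

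In microglia the isoform that stood out was Cox6a2, the form of subunit 6A known from heart and skeletal muscle. It made up 54.4%, 43.9% and 8.08% of Cox6a UMIs in libraries 1, 2 and 3, with 200, 122 and 12.3 CPM (5260, 5744 and 125 UMIs). The common form Cox6a1 had 167, 156 and 140 CPM in the same libraries. Cox6a2 thus differed far more between libraries than Cox6a1, and library 3 stood apart. Microglia with a Cox6a2 UMI were 41.2%, 37.2% and 6.31% of cells, at median depths of 7685, 8251 and 6427.5 UMIs. With each cell thinned to 1000 UMIs they were 12.5%, 8.48% and 1.07%, in the same order. In mature oligodendrocytes 2.79%, 2.12% and 0.377% of cells had one.

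Cox6a2 lies on chr7:128205435-128206387 (GRCm38, minus strand), inside the span of Itgad, an integrin gene on the plus strand. Itgad itself had 0.550 CPM in microglia. The nearest gene with over 50 CPM in microglia was Itgax, 54778 bases away, an integrin that is a known marker of activated microglia. Its level was 54.3, 65.2 and 3.06 CPM in libraries 1, 2 and 3, low in library 3 as Cox6a2 was. Armc5, nearer at 30955 bases, went the other way, with 19.0, 17.8 and 34.9 CPM. A link between Cox6a2 and its neighbours was not tested.

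Outside microglia, Cox6a2 was compared with what 4 microglial markers left in the same cells. Mature oligodendrocytes had 2.81%, 4.29% and 4.95% of the microglial Cox6a2 level, and 1.82% to 2.82%, 2.82% to 3.86% and 0.532% to 0.956% of the marker levels. NK cells of library 1 had 76.8 CPM, 38.5% of the microglial level, where the markers were at 1.70% to 2.04%. Those of library 2 had 2.44 CPM (2.0%, markers 1.26% to 2.34%). Neutrophils had 14.1 and 52.9 CPM, over 23 UMIs in all, which was 7.09% (markers 4.01% to 9.41%) and 43.4% (markers 5.89% to 12.4%). T cells had 9.59% and 7.08% in libraries 1 and 2, with markers at 1.86% to 2.70% and 3.26% to 4.41%. Neurons had 3.50% and 9.90%, with markers at most at 1.63% and 1.23%. T cells and neurons were thus above the marker range in both of these libraries. Mature oligodendrocytes and neuroblasts were so in libraries 2 and 3, NK cells in library 1, neutrophils, astrocytes and choroid plexus epithelium in library 2, and endothelial cells in library 3. Several of these values rest on very few UMIs. Neuroblasts had 15 and 1 in libraries 2 and 3. In library 2, neurons had 12.1 CPM over 414507 UMIs, astrocytes 8.38 CPM over 238571 and choroid plexus epithelium 4.03 CPM over 495671. Endothelial cells had 0.183 CPM over 5471504 UMIs. The source of the Cox6a2 UMIs outside microglia was not tested, and Cox6a2 was the member counted as higher in neutrophils.

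Choroid plexus epithelium combined 3 variant subunits. Cox8b, known from heart and skeletal muscle, had 407 and 268 CPM in libraries 1 and 2 and made up 10.0% and 7.83% of Cox8 UMIs, against at most 0.292% in the other ranked classes. A Cox8b UMI was seen in 54 of 107 cells (50.5%, median depth 6215 UMIs) and in 0.0962% of mature oligodendrocytes (6082 UMIs). Cox6b2, known from testis, had 307 and 228 CPM and 22.0% and 19.4% of Cox6b UMIs. Pericytes also held it, with 17 of 92 Cox6b UMIs (18.5% [11.1, 27.9]). Cox7a1, the muscle form of subunit 7A, made up 6.47% of Cox7a UMIs there and at most 3.20% in other ranked classes. The RefSeq stretches of Cox8b and Cox6b2 given above had neither motif searched.

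Cox7a2l, a gene known for a part in joining complex III and complex IV into supercomplexes, did not follow the sum. Supercomplexes were not measured, so its RNA values say nothing of their formation in these mice. Cox7a2l held 63.7%, 65.8% and 65.8% of Cox7a family UMIs in microglia, 57.3% in T cells and 49.8% in NK cells. In mature oligodendrocytes it held 24.9%, 29.5% and 25.8%, in astrocytes 22.0% and in choroid plexus epithelium 14.9% and 16.4%. The library values of microglia and choroid plexus epithelium did not overlap. In level, microglia had 401, 415 and 372 CPM and choroid plexus epithelium 242 and 204 CPM, although the summed members were higher in the latter. Ttr lowers the CPM in choroid plexus epithelium, while the shares within the Cox7a family do not depend on the total. The highest level of Cox7a2l was in neuroblasts, at 481 CPM, where the sum was also above that of microglia.

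The subunit c genes of ATP synthase also changed places. Atp5g1 made up 66.6% and 66.1% of Atp5g UMIs in choroid plexus epithelium (2378 CPM) and 39.5%, 38.5% and 42.0% in mature oligodendrocytes, against 22.1% to 33.9% in the other ranked classes. Atp5g2 held 66.7%, 66.8% and 59.3% in microglia and 15.5% and 16.0% in choroid plexus epithelium. Atp5g3 was highest in astrocytes (29.7%) and neurons (28.7%) and lowest in microglia (11.3%). Of the stretches printed, that of Atp5g2, which lies wholly inside the gene's annotated span, has the NRF1 letters and that of Atp5g1 does not. The Atp5g3 stretch, not printed, has no match to either motif. A link between the letters and these shares was not tested. Reads of this family can be shared with near-identical processed copies, which makes the split between its genes uncertain. Cox7b2 held at most 0.833% of the Cox7b pair in any ranked class, and Cox8c had 0 UMIs.

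Within a class, cells with at least 3 of 6 division genes (Top2a, Mki67, Cenpf, Ube2c, Birc5, Pclaf) had the higher share. Dividing T cells had 2.99% and 2.73% in libraries 1 and 2, other T cells 1.92% and 1.87%. Dividing microglia had 2.31% and 1.92%, other microglia 1.5% and 1.44%. Dividing neuroblasts had 3.14%, 2.83% and 2.78%, and other neuroblasts 2.59%, 2.41% and 2.35%. In each of these libraries the dividing cells were higher and the 2 sets did not overlap over libraries. The summed share was 1.52-fold, 1.42-fold and 1.18-fold that of the other cells.

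Depth moved with division: the median dividing cell had 10713, 17220 and 11130 UMIs in the 3 classes, the median other cell 4597, 7463 and 4472.5. Among cells with at least 8000 UMIs, a limit chosen after the data were seen, the folds were 1.39 and 1.40 in T cells, 1.42 and 1.27 in microglia, and 1.1, 1.13 and 1.06 in neuroblasts. The direction was kept in each of these 7 pairs. The remaining difference in depth within these sets was not tested.

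**Figure D5:**
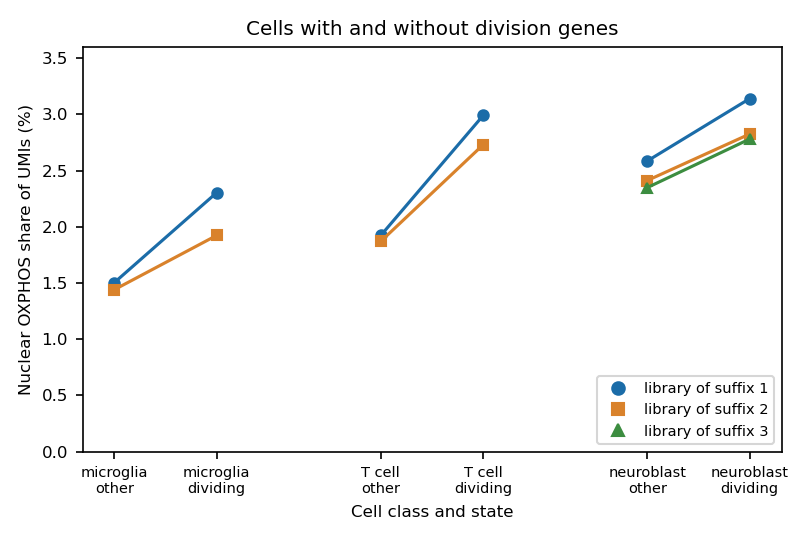
Nuclear OXPHOS share (% of UMIs, vertical) in cells with and without division genes for microglia, T cells and neuroblasts; lines join the 2 states of a library. In every library with at least 20 dividing cells of a class the dividing cells were higher, for example at 2.99% against 1.92% in the T cells of library 1. Microglia and T cells of library 3 had too few.

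Other nuclear genes of mitochondrial respiration were taken from lists of complex II, cytochromes c and c1, assembly factors of complexes III and IV, the ATP synthase inhibitor Atpif1, nucleotide and phosphate carriers, citric acid cycle enzymes, outer membrane channels and mitochondrial transcription (52 genes, 46 of them tested). In choroid plexus epithelium 18 were higher and 3 lower, in neurons 19 higher and 0 lower, in neutrophils 1 higher and 30 lower, and in microglia 0 higher and 13 lower. The background is that of the members: 11.7% higher and 30.2% lower in choroid plexus epithelium, 31.3% higher in neurons, 29.5% lower in neutrophils and 10.6% lower in microglia. Citric acid cycle enzymes were higher for 6 of 11 in choroid plexus epithelium and in neurons and lower for 9 of 11 in neutrophils and 5 of 11 in microglia. Assembly factors of complexes III and IV did not follow in choroid plexus epithelium, with 2 higher and 2 lower of 15.

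Cycs, the cytochrome c that carries electrons to complex IV, had 512 and 547 CPM in choroid plexus epithelium and 103, 102 and 119 CPM in microglia, with no overlap. Atpif1, the inhibitor of ATP hydrolysis by ATP synthase, had another order: 1204, 1048 and 1072 CPM in neuroblasts and 1043 and 864 CPM in neurons, above the 737 and 553 CPM of choroid plexus epithelium, and 147, 137 and 145 CPM in mature oligodendrocytes. Of 9 genes of mitochondrial transcription and biogenesis 5 were tested, and in choroid plexus epithelium Esrra, a nuclear receptor of mitochondrial genes, was higher and Nrf1, which encodes NRF1, lower. Of all genes tested, 11.7% were higher and 30.2% lower in this class. Ttr lowers every other CPM there, and its part in the Nrf1 call and in the order of Atpif1 was not tested.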

How the data were processed

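Brain cells of 3 pooled-animal libraries (control, ischemic stroke, hemorrhagic stroke) were profiled with 10x Genomics 3′ v3 chemistry. The authors deposited 1 matrix of raw UMI counts for all libraries. The submitters' processing notes name Cell Ranger 3.1.0, STAR, Seurat 3.1.1 and mm10. Per the study's methods, reads were down-sampled across libraries before the counts were made. The labels do not tie barcode suffixes to conditions, so the libraries entered no group comparison.

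Counts were summed per class and library in Python 3.11.15 with scipy 1.17.1, after keeping cells with at least 1000 UMIs and at most 30% mt- counts. The exact intervals have a confidence level of 95%. No doublet caller was run, and cells that passed 2 or more gates were left out. Folds used a pseudocount of 10 CPM, genes with a mean of at least 10 CPM, and classes with at least 20 cells in a library. Calls needed 1.5-fold in every library with enough cells, and at least 2 such libraries, and the calling step was tested on simulated data. Gene IDs matched the annotation for 30934 genes (99.6%). The members, lists and gates were chosen with earlier results of these data known. Named genes are the isoform families, the most abundant member of each complex, and up to 3 members with the highest and 3 with the lowest fold per class; 1 member is counted in the sums but not reported here by name. Other genes named with values in the text (Uqcr11, Ndufa11 and Cox8a in further classes, Cycs, Atpif1, Slc25a4, Slc25a5, Itgax, Itgad, Armc5, Esrra and Nrf1) were chosen after their values were seen. Alternatives changed gates, mt- and UMI limits, the total, the fold and the libraries.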

Additional observations from a re-analysis of the deposited data

Results flagged for a closer look

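Cells outside the classes also carried the member genes. The 109 cells that passed both the ependymal and the choroid plexus gate, left out of every class, had the highest share of any set, 6.07% (6.97% and 5.16% in libraries 1 and 2), at a median of 20708 UMIs. With them added, an alternative chosen after the data were seen, choroid plexus epithelium had 6.02%. The 2999 cells that passed no gate had 1.70% (1.76%, 1.57% and 2.35% in libraries 1, 2 and 3). The 1124 barcodes left out for mt- counts above 30% had 0.991%, at 38.4% mt- counts.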

How the results depend on the processing

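No paired analysis was possible because the barcodes carry no replicate number and no result comes from a test. Choroid plexus epithelium over neutrophils was the widest span of the nuclear share in 12 of 13 alternatives. From 7.29-fold, the span became 6.51 with at least 2 gate markers, 7.66 with at least 4, 7.61 where no other class had 2 or more markers, 7.68 with an upper UMI and gene limit, 7.51 without mt- UMIs in the total, 7.67 also without ribosomal protein UMIs, and 7.58 as a mean over cells; leaving out 1 library gave 4.95 to 7.42. The ratio span of 6.23-fold became 5.10 (at least 2 markers), 7.88 (at least 4), 5.77 (mt- counts at most 10%, over mature oligodendrocytes), 5.58 (at least 2000 UMIs), 8.47 (upper limit) and 12 (median over cells), and 3.70 to 7.50 without 1 library. The cause was not tested. The pericyte Ndufa4l2 share of 97.0% was 94.0% with at least 4 markers, and 96.9% to 97.0% with library 1 or 2 left out; that of Cox4i2 was 54.5% to 54.6%. At 2-fold in place of 1.5-fold, the members lower in microglia were 6 in place of 40 (6.98%, all genes 2.47%) and those higher in neurons 16 in place of 36 (18.6%, all genes 18.1%); the neuron count was 23 of 82 with at least 2 markers (28.0%, all genes 29.8%). The microglial count was 41 to 47 without 1 library. All 113 class shares under another gate, another mt- or UMI limit or without 1 library lay within 1.5 times of the value given, 107 within 1.1 times. Shares under another total are not among these 113. Without mt- and ribosomal protein UMIs NK cells had 3.54% in place of 2.18%, and T cells 3.20% in place of 2.04%. Not run were pericytes without library 3 (too few cells left), calls in choroid plexus epithelium, neurons and neutrophils without library 1 or 2 (1 library left), and neurons with at least 4 markers. Beside the counts, depth limited members with few UMIs: Ndufs1 in monocytes and dendritic cells and Cox6a2 in neutrophils rest on 1 and 23 UMIs.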

Other observations

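The 2 main adenine nucleotide carriers, which exchange ATP for ADP across the inner membrane, differed in opposite directions between mature oligodendrocytes and microglia; both genes were chosen after their values were seen. Slc25a4 had 721, 757 and 744 CPM in mature oligodendrocytes of libraries 1, 2 and 3 and 1522 and 1214 CPM in neurons, but 143, 168 and 161 CPM in microglia and 145, 169 and 144 CPM in T cells. Slc25a5 had 178, 192 and 184 CPM in mature oligodendrocytes and 366, 382 and 428 CPM in microglia. The library values of mature oligodendrocytes and microglia did not overlap for either gene. Over the other ranked immune classes Slc25a4 had 33.6 CPM (neutrophils) to 124 CPM (border-associated macrophages) beside the T cells, and Slc25a5 had 134 CPM (neutrophils) to 414 CPM (NK cells). Over the other neural classes, Slc25a5 had 259 CPM in neuroblasts, 324 CPM in oligodendrocyte precursors, 388 CPM in astrocytes and 397 CPM in neurons, so it did not part neural from immune classes.

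Library 3, whose condition the labels do not give, was compared with the other libraries member by member, as values with no test. In microglia 59 of 86 members were below and 19 above both other libraries, with a median log2 difference of -0.23, where the median over all genes tested was 0.27 and 18.1% of them were below and 76.1% above. In oligodendrocyte precursors (31 cells) 66 were below and 7 above, with 38.4% and 39.7% of all genes. In T cells (21 cells) the counts were 57 and 17, with 52.3% and 36.5% of all genes, and in neuroblasts 37 and 14, with 32.5% and 44.6%. Astrocytes went the other way, with 4 below and 76 above (median 0.50, all genes -0.03, with 34.3% of all genes below and 31.8% above). Mature oligodendrocytes had 29 each way, with 38.1% of all genes below and 46.8% above.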
